A study of Mus musculus with 20 samples.

Results

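The ribosomal protein genes are the genes named Rpl or Rps, with the stalk proteins Rplp0 to Rplp2, and their signals were followed here in blood from WT and from Il10-/- mice, unirradiated or exposed to whole body X-rays. They were found by name: all probes other than controls whose gene name in the array files is Rpl or Rps followed by a number and at most a short suffix, or Rplp0, Rplp1 or Rplp2. For each gene the probe with the highest mean signal over all 20 arrays was kept. The rule gave 82 genes among 39429 probes, and 79 of them were among the 22997 probes that passed the filter on dim signal. The 3 that did not pass were Rpl3l, Rpl10l and Rpl39l. The 79 tested genes hold 75 genes of the cytoplasmic ribosome, namely 42 of the large subunit, 30 of the small subunit and 3 of the stalk, and 4 paralogs, Rps27l, Rps4l, Rpl22l1 and Rpl7l1.

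RNA of peripheral blood was measured on 20 single-colour arrays in 4 groups of 5, each array listed as 1 mouse. The groups were WT mice at 0 Gy, WT mice at 7 Gy, Il10-/- mice at 0 Gy and Il10-/- mice at 7 Gy. The mice were young adult male littermates on the C57BL/6 background, bred from heterozygous parents, and those labelled Il10-/- carry a constitutive knockout of the cytokine Il10 that serves as a model of inflammatory bowel disease. Irradiated mice received X-rays over the whole body, the 0 Gy mice were sham irradiated, and blood was drawn 24 h later and globin transcripts were reduced before labelling.

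A ribosome is built from ribosomal RNA and a set of proteins that are made in nearly equal numbers, most from a single expressed gene. The mRNAs of these proteins begin with a run of C and T bases, the terminal oligopyrimidine (TOP) tract, through which growth signals control how well they are translated. In blood, developing red cells and dividing lymphocytes are known for high ribosome production, while mature neutrophils make few ribosomes. Some of the proteins have a second role, as free Rpl5, Rpl11, Rpl23 and Rpl26 bind Mdm2, the inhibitor of p53. Rps27l, a close relative of Rps27, is a known target gene of p53. In bulk blood RNA, fewer cells of a type and less RNA per cell cannot be told apart.

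Levels are given as log2 intensity minus the median of the array, and differences are differences of these log2 levels, in which a value of 1 is a doubling. The small number of arrays sets the precision. A gene was called changed in limma when its p was below 0.001 and its false discovery rate (Benjamini-Hochberg) below 10%, both from a fit of all 22997 features.

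Some arrays and labels bear on every value. In each of the 4 groups, replicates 1 and 2 were more alike than any other pair of arrays: after removal of a constant shift, their median absolute difference over all features ran from 0.14 to 0.21, while the 36 other pairs within a group had 0.24 to 0.85. The labels give each its own mouse, and whether they share RNA was not tested. The counts are therefore also given with replicates 1 and 2 averaged into 1 sample, which leaves 4 samples a group. Replicate 5 of WT at 0 Gy was weak, with 29.75% of probes well above background, against 34.17% to 56.93% on the other 19 arrays. The probe of the targeted gene Il10 was well above background on 10 of 10 arrays labelled Il10-/- and on 0 of 10 labelled WT. This probe alone thus does not bear out the genotype labels. Whether the knockout allele makes a transcript that the probe reads was not tested, and directions between genotypes are given as labelled. Of 13 mature neutrophil genes, 7 were called higher on the arrays labelled Il10-/- at 0 Gy and 0 lay lower. Of all features 0.578% were called in that comparison. All tested marker genes of B cells, T cells, red cells and platelets were well above background on some array. Liver and heart muscle genes were also measured and varied between arrays of a group, with mean liver levels of 2.68 to 10.35 in WT mice at 7 Gy. With each array scaled to its 75th percentile in place of its median, the split of all called features in WT mice moved from 871 higher and 470 lower to 967 and 893, and with quantile normalization to 823 and 865.

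The probes of the genes on which the results turn are shown because most ribosomal protein genes have many processed pseudogenes, and the array files place 52 of the 80 chosen probes that have a position on another chromosome than the gene itself. Only 28 of 80, or 35.0%, lay on the gene's own chromosome in build mm9, against 96.8% over 13293 genes of the array. A 60-base probe of a spliced transcript can match such a copy at any site, so signal from the gene and from near-identical copies cannot be told apart. The probe of Rps27l has no position in the files and reads through the end of its reading frame. Its stop codon is in capitals:
Rps27l: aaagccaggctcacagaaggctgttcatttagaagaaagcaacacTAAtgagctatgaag
The other probes lie within an open reading frame, so no base is marked in them. For Rps27 the probe shown is not its brightest one, from which its level and its differences are given, but a dimmer one that lies in the reading frame and is described beside its results. Those of Rps27 (chr11:69387456-69387515, plus strand; the gene is on chromosome 3) and Rps7 (chr9:98202284-98202343, plus strand; the gene is on chromosome 12) are:
Rps27: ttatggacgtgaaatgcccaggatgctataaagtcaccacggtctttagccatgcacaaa
Rps7: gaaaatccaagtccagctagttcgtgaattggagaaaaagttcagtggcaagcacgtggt
Those of Rps26 (chr8:109963188-109963247, minus strand; the gene is on chromosome 10), Rpl5 (chr13:22768563-22768622, plus strand; the gene is on chromosome 5) and Rpl13a (chrX:33753591-33753650, minus strand; the gene is on chromosome 7) are:
Rps26: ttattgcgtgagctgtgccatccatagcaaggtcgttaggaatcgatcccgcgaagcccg
Rpl5: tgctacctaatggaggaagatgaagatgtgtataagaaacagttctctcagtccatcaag
Rpl13a: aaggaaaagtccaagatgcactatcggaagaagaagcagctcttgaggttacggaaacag
The muscle paralog Rpl3l, whose probe also has no position in the files, is shown with them:
Rpl3l: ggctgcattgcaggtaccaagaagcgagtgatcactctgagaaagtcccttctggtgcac

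Some promoter motifs were more frequent among these genes than among all genes, though each was missing from many of them. In the RefSeq promoters of build GRCm38.p6, 61 of the 82 genes matched, with 73 windows. The pentamer CTTTC lay within 20 bases of the annotated start, on the strand of the gene, in 26.0% of their windows and in 5.5% of all 32851 windows. A run of at least 8 C or T bases lay there in 42.5% and 16.0% of these windows. The Ets motif CCGGAA, on either strand, was in 46.6% and 14.9%, and the GC box GGGCGG, on either strand, in 58.9% and 35.7%. TATAA in the 50 bases before the start was about as common in both, at 6.8% and 4.9%. A match is a description of the letters and not of a bound site. The 50 bases around the start, from 40 before it to 10 after, are shown for 5 of the 9 genes called in Il10-/- mice and for Rps27 beside its paralog, with runs of 5 or more C or T bases in capitals:
Rps27l (chr9:66946046-66946095, plus strand): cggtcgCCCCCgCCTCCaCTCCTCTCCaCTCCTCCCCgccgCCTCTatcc
Rps27 (chr3:90213639-90213688, minus strand): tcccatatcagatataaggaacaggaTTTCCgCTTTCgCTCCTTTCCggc
Rpl4 (chr9:64173347-64173396, plus strand): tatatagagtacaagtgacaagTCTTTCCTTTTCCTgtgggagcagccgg
Rps7 (chr12:28635944-28635993, minus strand): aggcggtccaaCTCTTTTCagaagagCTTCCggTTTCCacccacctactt
Rpl5 (chr5:107900488-107900537, plus strand): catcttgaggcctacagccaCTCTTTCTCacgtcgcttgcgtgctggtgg
Rps26 (chr10:128626497-128626546, minus strand): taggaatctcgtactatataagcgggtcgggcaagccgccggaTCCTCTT
The longest run was 14 bases in Rpl4 and 9 in Rps27, Rps27l and Rpl5. It was 8 in Rps7, and in Rps26 a run of 7 bases begins after the annotated start and reaches the end of the window. Among the other called genes it was 8 in Rpl13a, 6 in Rps3 and 5 in Rpl22, while the run of Rps27a, also called, was not measured.

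The ribosomal protein genes were read first as a body. The median level of the 79 genes was 10.77, 10.84, 10.56, 10.36 and 9.19 on the arrays of replicates 1 to 5 of WT mice at 0 Gy, and 10.17, 10.08, 10.01, 10.49 and 10.22 at 7 Gy. For Il10-/- mice it was 11.02, 10.92, 10.64, 10.80 and 10.69 at 0 Gy, and 10.22, 10.09, 9.97, 10.37 and 10.39 at 7 Gy. The groups of Il10-/- mice did not overlap, with every irradiated array below every unirradiated one. The groups of WT mice overlapped: replicates 4 and 5 at 0 Gy were below replicate 4 at 7 Gy, and the weak replicate 5 at 0 Gy was the lowest of all 20 arrays.

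**Figure D1:**
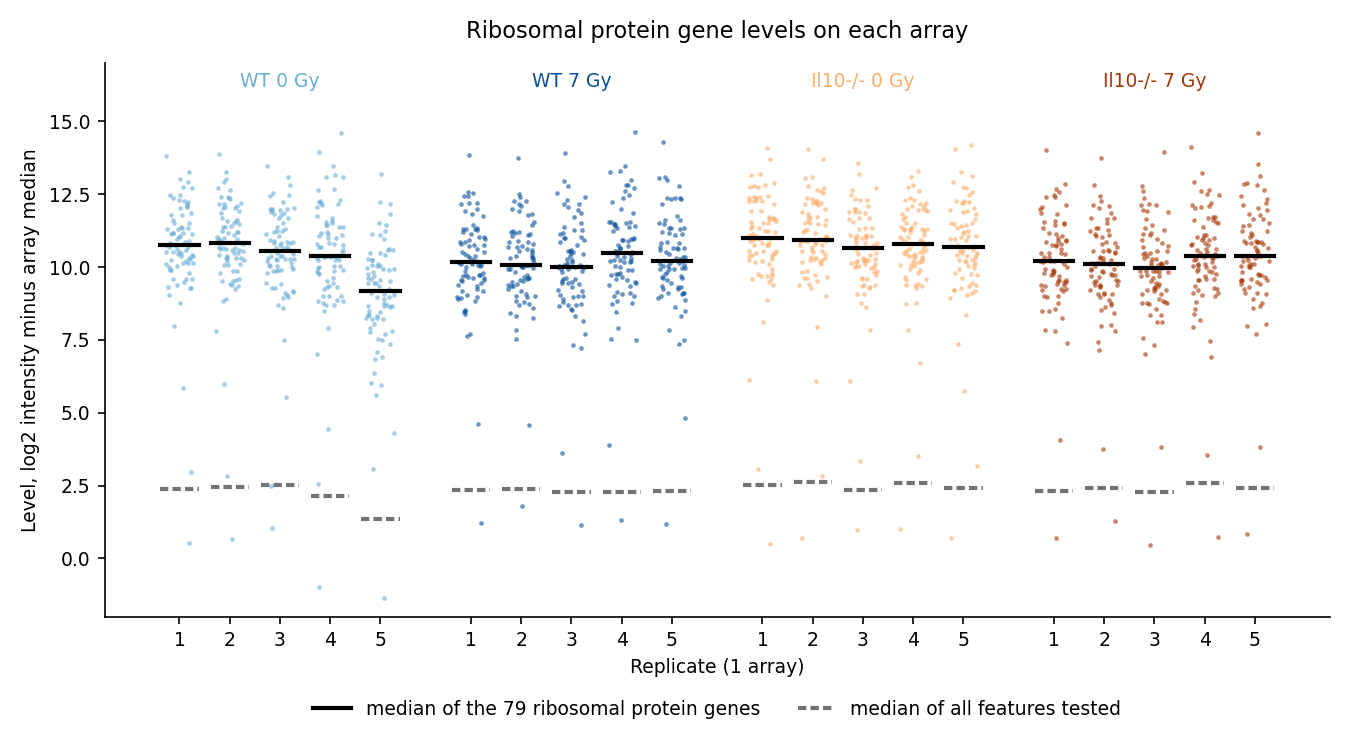
Level of the ribosomal protein genes (log2 intensity minus the median of the array) on each of the 20 arrays, by group and replicate. Each small point is 1 of the 79 tested genes, each dashed line the median of all features and each solid line the median of the genes, which lies at 9.97 to 10.39 in Il10-/- mice at 7 Gy, below the 10.64 to 11.02 at 0 Gy, and at 9.19 on replicate 5 of WT mice at 0 Gy.

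After 7 Gy, 8 ribosomal protein genes fell in Il10-/- mice and 1 rose. Of the 79 tested genes, 74 had a difference below 0, with a median of −0.61, which is 0.655 of the unirradiated level, against a median of −0.11 over all features, of which 57.3% were below 0. The called genes were 11.4% of the 79, where 8.2% of all features were called in this comparison, 2.84% higher and 5.37% lower. The irradiated arrays lay wholly below the unirradiated ones for 43 of the genes, or wholly above them for 2, where 15.4% of all features did not overlap and 10.2% did so in the direction of a lower level. At an unadjusted p below 0.05, 59 genes were lower and 2 were higher, 61 of 79, against 33.3% of all features.

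The calls of the falls depended on the choice of samples, of the fit and of the background correction. With replicates 1 and 2 averaged, only the rise of Rps27l was called and no fall, while the median was −0.57 and 72 of 79 genes remained below 0. At that setting 418 of all 22997 features were called higher and 536 lower, with a median of −0.09. There 40 of the 79 genes were lower at an unadjusted p below 0.05 and 12 at an adjusted p below 10%. The shares of all features at these 2 cuts were not computed, so the 40 and 12 cannot be set against them. When slides entered the limma fit as a replicate block, 3 of the 9 genes were called, Rps7, Rps26 and Rps27l. With all 4 groups in 1 fit 0 falls were called, where 818 of all features were called lower. With normexp, another background correction, 0 genes and 0 of all features were called. With quantile normalization the median was −0.32, against −0.15 over all features, and 4 genes were called. On the 5 slides, each of which held 1 array of every group, the median within-slide difference of the genes was −0.79, −0.94, −0.63, −0.40 and −0.23, where that of all features was −0.27, −0.30, −0.21, 0.08 and −0.06.

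The small subunit gave 4 of the falls. Rps7, which can also bind Mdm2, had levels of 9.77, 9.86, 9.31, 9.30 and 9.35 in Il10-/- mice at 0 Gy and of 8.48, 8.44, 8.35, 8.40 and 8.78 at 7 Gy. The groups did not overlap, and the fall was −1.02 (SE 0.19, adjusted p = 0.00441 in limma), or 0.492 of the unirradiated level. On the slides its difference was −1.29, −1.42, −0.95, −0.90 and −0.57. With replicates 1 and 2 averaged it was −0.94 (adjusted p = 0.0405), which did not pass the threshold. Rps3, a protein at the entry of the mRNA channel, fell by 0.96 in log2 level (SE 0.21, adjusted p = 0.00897), with levels of 10.16, 10.18, 9.85, 10.07 and 9.98 against 9.24, 8.86, 8.58, 9.24 and 9.51. A second Rps3 probe was also called, at −0.90. A dimmer one, at a mean level of 4.79, had 0.16 and was not called. It and the brightest Rps3 probe are both placed on the gene's own chromosome, while the second called probe has no position. Rps26, which lies where the mRNA leaves the ribosome, had 10.49, 10.31, 10.01, 10.33 and 10.25 against 9.37, 9.30, 8.81, 9.57 and 9.65. Every irradiated value of both genes was below every unirradiated one, and the fall of Rps26 was −0.94 (SE 0.20, adjusted p = 0.00924). Rps27a, made as a fusion with ubiquitin, fell by 0.86 in log2 level (SE 0.18, adjusted p = 0.00834). The 30 small subunit genes had a median of −0.68, and 29 of them were below 0.

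The large subunit gave the other 4. Rpl4, which lines the tunnel through which the new protein leaves, had levels of 9.61, 9.62, 9.09, 9.37 and 9.20 at 0 Gy and of 8.51, 8.02, 8.13, 8.55 and 8.61 at 7 Gy in Il10-/- mice. The groups did not overlap, the fall was −1.02 (SE 0.20, adjusted p = 0.00565 in limma), and the differences on the slides were −1.10, −1.60, −0.96, −0.82 and −0.59. With replicates 1 and 2 averaged it was −0.93 (adjusted p = 0.0426), outside the threshold. Rpl13a, often used as a reference gene in PCR, had 10.76, 10.79, 10.60, 10.64 and 10.40 against 9.73, 9.69, 9.34, 9.92 and 9.82. It fell by 0.94 (SE 0.18, adjusted p = 0.00507), and all 3 of its probes were called, at −0.99, −1.03 and −0.94. Rpl22, which lymphocytes need for their development, fell by 0.91 (SE 0.21, adjusted p = 0.0115). Its dimmer probe, at a mean level of 3.26, had −0.18 and was not called. Rpl5, a carrier of 5S ribosomal RNA that binds Mdm2, had 8.88, 9.01, 8.63, 8.77 and 8.35 against 7.85, 7.81, 7.58, 7.93 and 8.06 and fell by 0.88 (SE 0.19, adjusted p = 0.00882). In their brightest probes, neither Rpl22 nor Rpl5 had an irradiated array as high as an unirradiated one. The 42 large subunit genes had a median of −0.60, with 41 below 0, and the 3 stalk genes, which recruit elongation factors, a median of −0.24, with none called.

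Members with known special roles that were not called had the following differences in Il10-/- mice. Of the other genes whose proteins bind Mdm2, Rpl11 differed by −0.61 (adjusted p = 0.0503), Rpl23 by −0.81 (adjusted p = 0.0233) and Rpl26 by −0.68 (adjusted p = 0.0328). Of the genes mutated in Diamond-Blackfan anaemia, a congenital failure of red cell production, Rps24 differed by −0.77 (adjusted p = 0.0245), Rpl35a by −0.46 (adjusted p = 0.0968) and Rps19 by 0.00 (adjusted p = 0.994). A dimmer Rps24 probe, at a mean level of 6.65, went the other way, at 0.51, and was not called. The PCR reference gene Rps18 had −0.65 (adjusted p = 0.0379). Rplp0, the scaffold of the stalk, had −0.51 (adjusted p = 0.167), Rplp1 −0.20 (adjusted p = 0.562) and Rplp2 −0.24 (adjusted p = 0.462). At the other end, Rps29, which varied least of the genes tested over the 20 arrays (SD 0.29), had −0.01, with a 95% confidence interval of −0.42 to 0.41, and Rpl41, named after its value was seen, had 0.25 (adjusted p = 0.506).

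**Figure D2:**
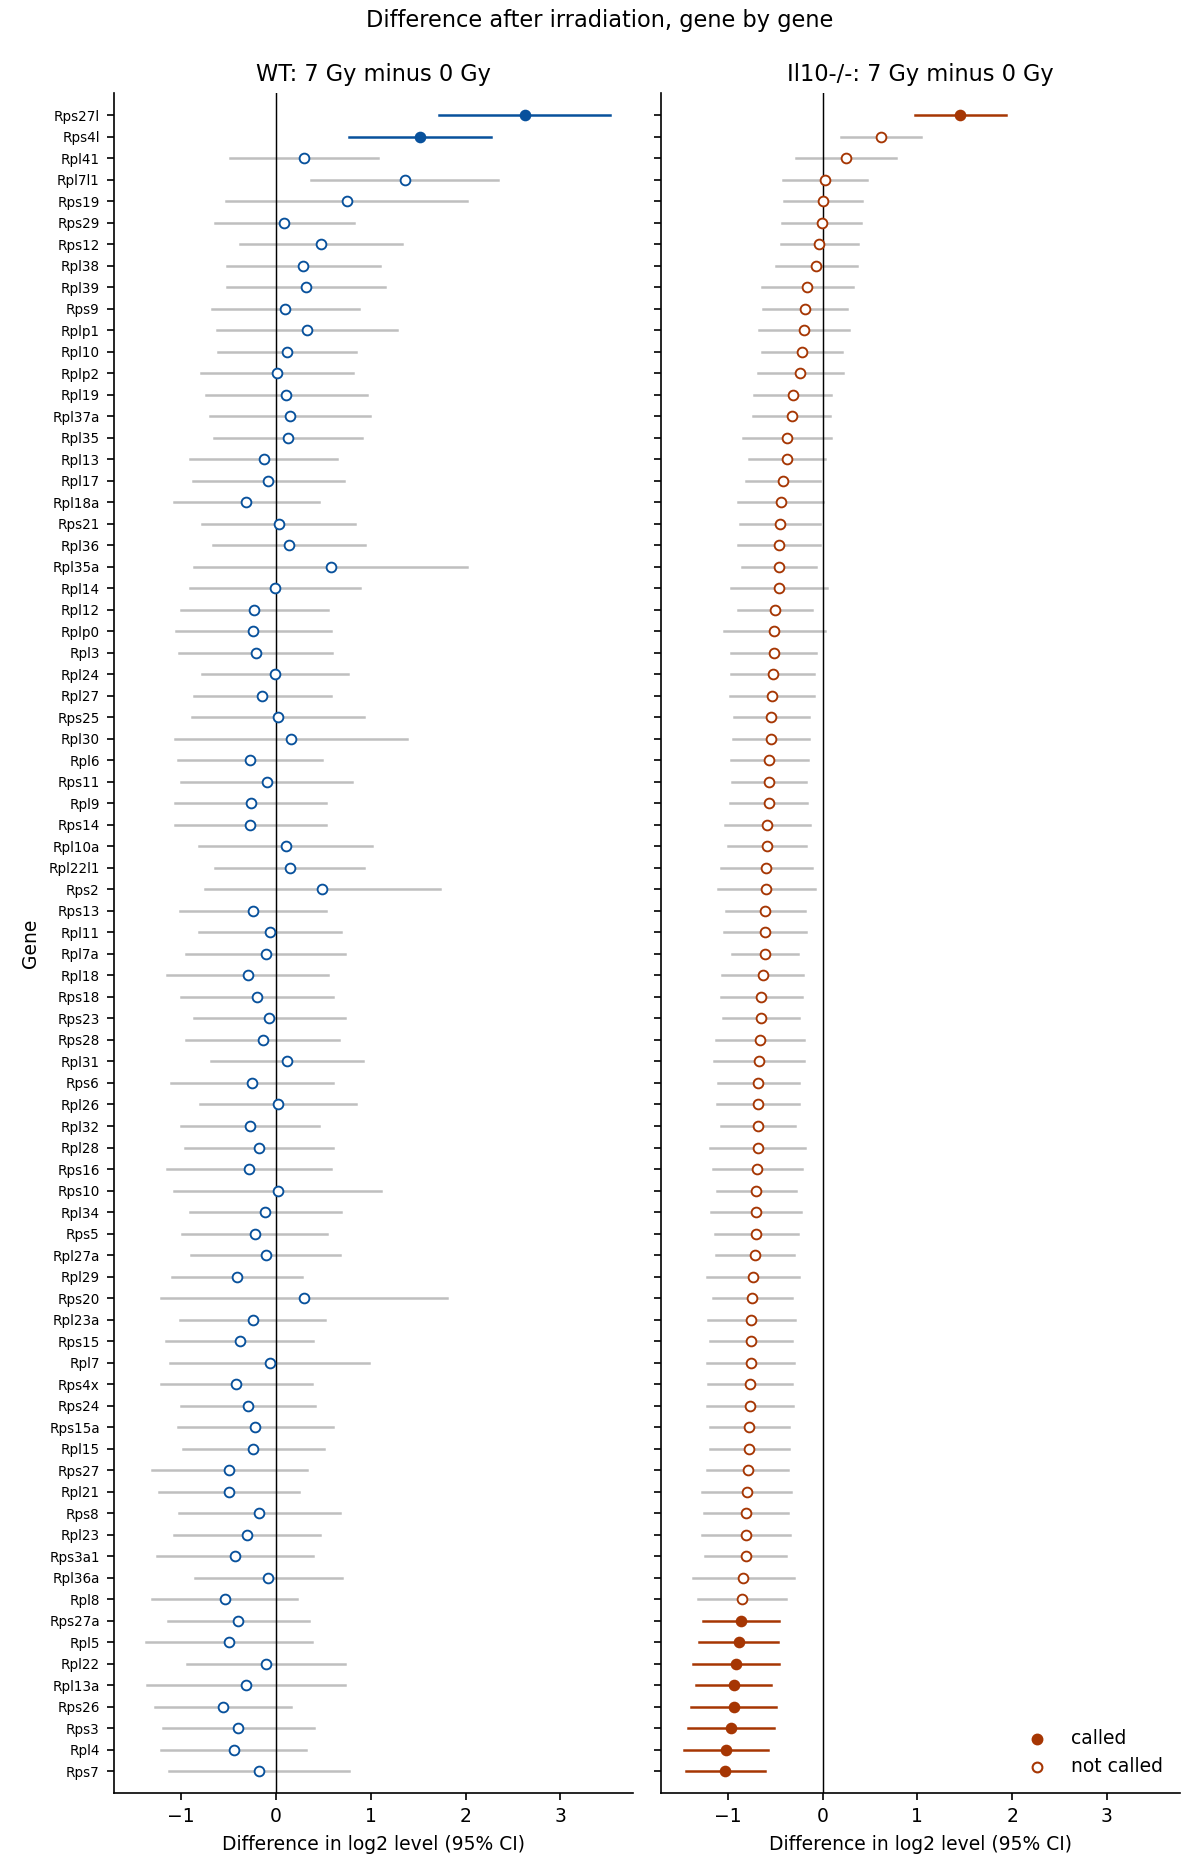
Difference in log2 level, 7 Gy minus 0 Gy, of 78 of the 79 tested ribosomal protein genes in WT and in Il10-/- mice, with 95% confidence intervals from limma (5 arrays a group) and called genes marked. In Il10-/- mice 9 genes are called, of which Rps27l alone lies above 0, and in WT mice 2 are called, Rps27l and Rps4l.

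In WT mice no ribosomal protein gene fell after 7 Gy, and 2 rose, Rps27l and Rps4l. These were 2.53% of the 79, where 5.83% of all features were called, 3.79% higher and 2.04% lower. The median difference was −0.11 against 0.05 over all features, with quartiles of −0.27 and 0.11. Of the 79 genes 50 were below 0, where 47.4% of all features were. The groups did not overlap for 3 genes, all higher, Rps27l, Rps4l and Rpl7l1, where 13.8% of all features did not overlap. At an unadjusted p below 0.05 there were the same 3 of 79 genes, against 25.4% of all features. The medians were −0.11 in the large subunit, −0.19 in the small subunit and 0.01 in the stalk.

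The median in WT mice depended on single arrays. Its difference within slides was −0.54, −0.73, −0.47, 0.03 and 1.08, so that 3 slides were negative, and the weak array at 0 Gy gave the highest value. Over all features these values were −0.28, −0.31, −0.18, 0.09 and 1.10. Without replicate 5 of WT at 0 Gy the median was −0.45, with 72 of 79 genes below 0, against −0.15 over all features, and the same 2 genes were called. With replicates 1 and 2 averaged the median was 0.01, 38 genes were below 0, and only Rps27l was called. With normexp background correction, an alternative to the correction of the scanner software, the median was 0.84 and 0 genes lay below 0. On the weak array 78 of the 79 genes were below every other array of their group, with a median distance of −1.38 to the mean of the other 4 arrays of that group, where that of all features was −1.20. Genes such as Rps7, with 9.51, 9.56, 9.17, 8.77 and 7.07 in WT mice at 0 Gy and 8.52, 8.59, 8.72, 8.85 and 8.50 at 7 Gy, show both patterns. Its first 3 unirradiated arrays were higher than all irradiated ones and the last was lower than all of them (difference −0.18, adjusted p = 0.844). Rpl4 had 9.27, 9.25, 9.05, 8.70 and 7.81 against 8.48, 8.42, 8.16, 8.46 and 8.32 (difference −0.45, adjusted p = 0.484). Its highest 4 unirradiated arrays were above every irradiated one.

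Of the 4 tested paralogs, Rps27l rose in both genotypes, Rps4l rose in WT mice, and Rpl22l1 and Rpl7l1 were called in neither. Rps27l, the p53 target, had levels of 5.84, 5.98, 5.53, 4.44 and 4.32 in WT mice at 0 Gy and of 8.39, 8.27, 7.24, 7.50 and 7.83 at 7 Gy. Il10-/- mice had 6.11, 6.09, 6.08, 6.70 and 5.76 at 0 Gy and 7.82, 7.44, 7.33, 7.46 and 7.97 at 7 Gy. In both genotypes every irradiated array was above every unirradiated one. The rise was 2.62 in WT mice (SE 0.42, adjusted p = 0.00154 in limma), or 6.15-fold, and 1.46 in Il10-/- mice (SE 0.22, adjusted p = 0.00143), or 2.74-fold. With replicates 1 and 2 averaged it was 2.67 (adjusted p = 0.00582) and 1.44 (adjusted p = 0.0142), called in both. Within slides it rose by 1.71 to 3.51 in WT mice and by 0.76 to 2.21 in Il10-/- mice. Its partner Rps27 had 12.36, 12.35, 11.96, 11.57 and 10.59 against 11.26, 11.15, 11.14, 11.49 and 11.33 in WT mice (difference −0.49, adjusted p = 0.466), groups that overlap. In Il10-/- mice it had 12.41, 12.28, 12.29, 12.30 and 11.97 against 11.52, 11.24, 11.11, 11.61 and 11.82, groups that do not overlap (difference −0.79, adjusted p = 0.0169, not called). Its 4 probes gave −0.79 to −0.82 in Il10-/- mice, and the probe printed above was called there. In WT mice they gave −0.57, −0.38, −0.49 and 0.53, the last from the printed probe, whose level on the weak array was 4.73 against 11.16 to 11.87 on the other unirradiated arrays.

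Rps4l, listed in the files under a record of a non-coding transcript related to Rps4x, had 2.97, 2.84, 2.49, 2.54 and 3.06 in WT mice at 0 Gy and 4.60, 4.58, 3.63, 3.88 and 4.83 at 7 Gy. All irradiated arrays were above all unirradiated ones, and the rise was 1.52 (SE 0.35, adjusted p = 0.0126 in limma), or 2.87-fold. Of the 5 WT arrays at 0 Gy, 4 gave it a signal well above background. The call was lost in 14 of 24 alternatives, at 1.19 to 1.67, among them replicates 1 and 2 averaged (1.48, adjusted p = 0.0728), 75th percentile scaling (1.29), quantile normalization (1.19) and 7 of the 10 single arrays left out. In Il10-/- mice the values were 3.07, 2.82, 3.35, 3.52 and 3.16 against 4.05, 3.75, 3.83, 3.54 and 3.83, which do not overlap either, and the difference of 0.62 (adjusted p = 0.0425) was not called. Rpl7l1 differed by 1.36 in WT mice (adjusted p = 0.0729) and by 0.03 in Il10-/- mice, neither called. It was well above background on 3 of 5 WT arrays at 0 Gy and 2 of 5 Il10-/- arrays at 7 Gy, and on all 5 of the other groups, while its partner Rpl7 differed by −0.76 in Il10-/- mice (adjusted p = 0.0274). Rpl22l1, the paralog of Rpl22, differed by 0.14 in WT mice and by −0.59 (adjusted p = 0.0803) in Il10-/- mice. It was thus not called where Rpl22 was, and the difference between the paralogs was not tested.

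**Figure D3:**
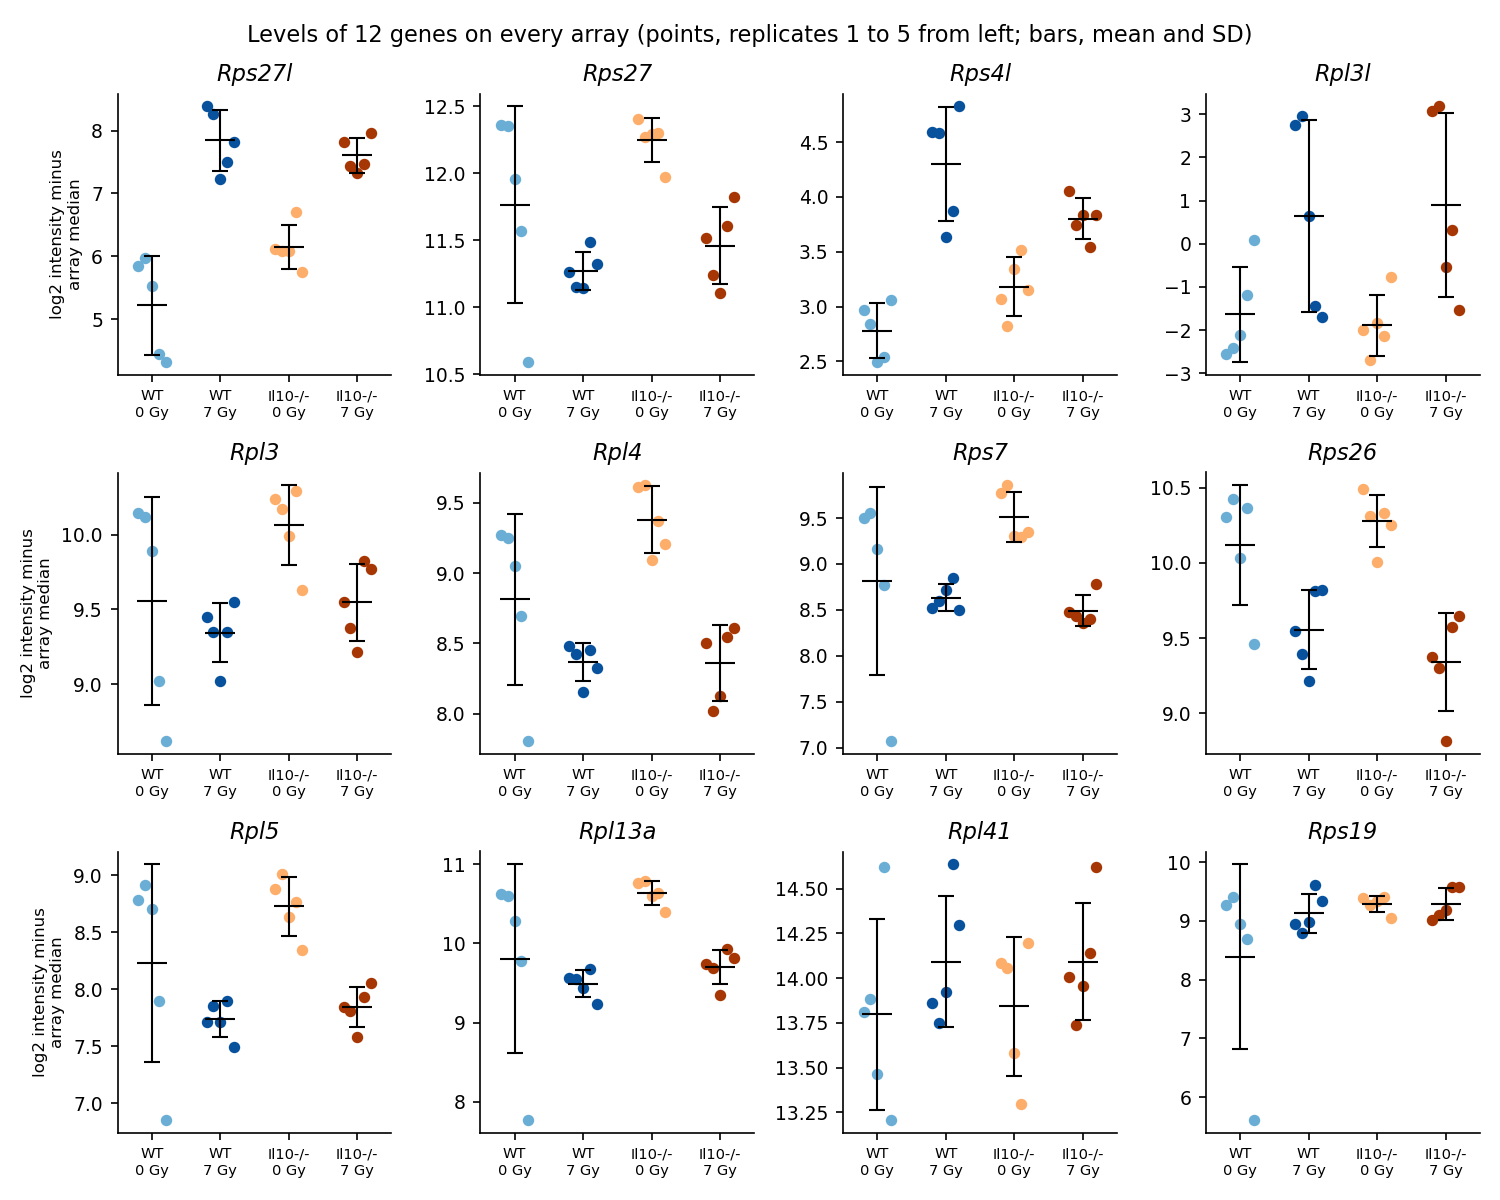
Levels (log2 intensity minus the median of the array) of 12 ribosomal protein genes in the 4 groups, with 1 point per array, replicates 1 to 5 from the left, and bars for the mean and SD of 5. Each panel has its own axis. Rps27l lies at 4.32 to 5.98 in WT mice at 0 Gy and at 7.24 to 8.39 at 7 Gy, and Rps7 and Rpl4 in Il10-/- mice lie lower at 7 Gy than at 0 Gy on every array.

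The paralogs known from muscle and testis were near background. Rpl10l, a testis gene, was well above background on 0 of 20 arrays, and Rpl39l on 1 array of WT mice at 7 Gy and 1 of Il10-/- mice at 0 Gy. Rpl3l, the relative of Rpl3 used by heart and skeletal muscle, was well above background on 3 of 5 arrays of WT mice and 2 of 5 of Il10-/- mice at 7 Gy, and on none at 0 Gy. Its levels at 7 Gy were 2.76, 2.96, 0.64, −1.44 and −1.69 in WT mice and 3.07, 3.18, −0.53, 0.32 and −1.53 in Il10-/- mice. The high values were thus those of the alike replicates 1 and 2. The mean of the heart muscle genes moved with them, at 5.68, 5.68, 3.11, 0.01 and 0.15 in WT mice and 5.50, 5.50, 3.45, 3.96 and 0.99 in Il10-/- mice at 7 Gy, and at −0.29 to 1.71 and −0.62 to 2.24 at 0 Gy. Its part in the level of Rpl3l was not tested. Against the lowest signal well above background on the unirradiated arrays, the mean of Rpl3l at 7 Gy was 1.58-fold higher in WT mice and 3.00-fold higher in Il10-/- mice. That mean includes irradiated arrays where Rpl3l was not well above background, so these folds are not lower bounds. In WT mice replicates 4 and 5 at 7 Gy were below replicates 4 and 5 at 0 Gy, which had −1.18 and 0.09. The gene was not in the test. The partners Rpl3, Rpl10 and Rpl39 differed by −0.52 (adjusted p = 0.0993), −0.22 (adjusted p = 0.476) and −0.16 (adjusted p = 0.649) in Il10-/- mice.

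Between unirradiated Il10-/- and WT mice no ribosomal protein gene was called, and none had groups that did not overlap. At an unadjusted p below 0.05 there was 1 gene, Rps27l, where 14.6% of all features reached it. Of all features 0.578% were called and 3.91% did not overlap. The median difference of the 79 genes was 0.46, and 78 were above 0, against a median of 0.38 over all features, of which 29.1% were below 0. The difference of these medians was 0.08, and with 75th percentile scaling 22 genes were below 0 and the median was 0.11. Without the weak replicate 5 of WT at 0 Gy the median of the genes was 0.16, the same as over all features, and with replicates 1 and 2 averaged it was 0.51, with 0 called. Rps20 and Rps2, named after their values were seen, and Rps27l had differences of 1.13, 0.93 and 0.93, and the distance of the weak array from the mean of the other 4 arrays of that group was −4.42 for Rps20 and −3.44 for Rps2.

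Whether the response to 7 Gy differed between genotypes was tested as the interaction of genotype and dose over all 20 arrays. No ribosomal protein gene was called in limma, and 0% of all features were. At an unadjusted p below 0.05 there were 3 genes, Rpl7l1 (−1.33), Rps27l (−1.17) and Rps4l (−0.90), each with an adjusted p of 0.698, against 6.67% of all features. For Rps27l, not called, the 95% confidence interval of a smaller response in Il10-/- mice was 0.18 to 2.15 on the log2 scale before adjustment. Its unirradiated WT levels were 4.44 on replicate 4 and 4.32 on the weak replicate 5, against 5.53 to 5.98 on the others. At 7 Gy it had 7.24 to 8.39 in WT mice and 7.33 to 7.97 in Il10-/- mice. The difference of the responses was below 0 for 79 of 79 genes, where 65.3% of all features were below 0. The median was −0.48 against −0.25 over all features, so that the medians differed by −0.23. With 75th percentile scaling 74 genes were below 0, and with quantile normalization 70. Without the weak array the median was −0.17, and with replicates 1 and 2 averaged −0.53. The radiation comparisons of both genotypes share no arrays. Each shares its unirradiated arrays with the baseline comparison and all of its arrays with the interaction.

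Within a gene, other probes mostly gave like values. For the 57 genes with more than 1 probe past the filter, the range between probes of the difference in Il10-/- mice had a median of 0.08 and a maximum of 1.28. In 3 genes, among them the called Rps3 and the uncalled Rps24, probes had opposite signs. In WT mice the median range was 0.16, the maximum 1.76, and 20 genes had probes of opposite sign. With only probes placed on the gene's own chromosome 42 genes could be tested. Of these 6 fell in Il10-/- mice, among them Rpl13a, Rpl22, Rps3 and Rps27a, with a median of −0.60, so the medians of that set and of the brightest probes lay close.

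The rest of the translation machinery was read from lists of known genes. Of all features, 3.79% were called higher and 2.04% lower in WT mice, and 2.84% and 5.37% in Il10-/- mice. Medians over all features were 0.05 and −0.11. Of the 76 tested mitochondrial ribosomal protein genes, 0 were called in WT mice, where the median was 0.80, and 2 in Il10-/- mice, where Mrps6 rose by 0.98 (adjusted p = 0.00807), Mrpl32 fell by 1.69 (adjusted p = 0.0016) and the median was −0.06. Of the 79 ribosome biogenesis factors, 1 fell in WT mice (median −0.09) and 6 fell in Il10-/- mice (median −0.45). In Il10-/- mice 72 were below 0, where 57.3% of all features were. They were led in Il10-/- mice by Sdad1, a large subunit assembly factor, at −1.54, Dkc1, the pseudouridine synthase, at −1.50, and Ubtf, a transcription factor of ribosomal DNA, at −1.31, and Dkc1 also fell in WT mice, by 1.62. Of the 10 elongation factors, 0 were called in WT mice (median −0.15) and 1 fell in Il10-/- mice (median −0.56), the exchange factor Eef1d at −1.44. Of the 39 initiation factors, Pabpc1, the poly(A) binding protein, fell by 1.88 in WT mice (median 0.32), and Eif5 and Eif3j1 fell in Il10-/- mice, by 2.04 and 1.33 (median −0.24). Of the 20 other genes with TOP mRNAs, Pabpc1 was the 1 that fell in WT mice (median −0.18) and Eef1d the 1 in Il10-/- mice (median −0.57). That list and the ones before it share these genes. At baseline the medians of these 5 lists were 0.66, 0.49, 0.45, 0.64 and 0.45 in the order given, with 0 called, and in the interaction −0.85, −0.48, −0.55, −0.63 and −0.43, with 0 called. Over all features these medians were 0.38 and −0.25. Without the weak replicate 5 of WT at 0 Gy the medians over all features were −0.15 in WT mice, 0.16 at baseline and −0.02 in the interaction. Those of the lists were not computed without it. The mean of the mitochondrial list was 2.51 on that array and 3.36 to 4.27 on the other WT arrays at 0 Gy.

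Markers of blood cells changed on the same arrays, and their part in the ribosomal protein values was not tested. The shares of all features called after 7 Gy are those given for the translation lists. Of 14 B cell genes, 11 fell in WT mice and 12 in Il10-/- mice, with medians of −2.94 and −3.54. Their mean level ran from 4.22 to 5.93 at 0 Gy and from 1.93 to 2.72 at 7 Gy in WT mice, and from 4.48 to 5.54 and from 1.70 to 2.15 in Il10-/- mice, and none of the genes was below background on every array. Of 18 erythroid genes, 7 and 9 fell, with medians of −1.32 and −1.26, and mean levels of 7.06 to 8.98 against 6.02 to 7.19 in WT mice and of 7.16 to 8.73 against 6.11 to 7.28 in Il10-/- mice. Of 18 T cell genes 4 and 5 fell (medians −0.50 and −0.62), and of 11 NK cell genes 0 were called (medians 0.34 and 0.08).

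The myeloid lists differed at baseline, where 0.578% of all features were called. The list of mature neutrophil genes, 7 of 13 called higher in unirradiated Il10-/- mice, had a median of 1.88 and mean levels of 7.27 to 8.58 against 5.12 to 6.79 in WT mice. After 7 Gy 1 of them rose in each genotype (medians 0.17 and −0.39). Of 10 neutrophil precursor genes, 4 were higher at baseline (median 2.02), 1 rose and 1 fell after 7 Gy in WT mice (median 0.03) and 2 fell in Il10-/- mice (median −1.75). Of 9 monocyte genes, 1 was higher at baseline (median 0.78), 3 rose and 1 fell in WT mice (median 0.26) and 3 fell in Il10-/- mice (median 0.25). Of 14 platelet genes, 1 was called higher in WT mice and 0 were called in Il10-/- mice, while 0 lay below 0 in either (medians 1.27 and 1.17). At baseline 0 were called and 0 lay below 0 (median 1.01). Of 17 liver genes, 8 rose in WT mice and 0 were called in Il10-/- mice (medians 4.90 and 1.45), and 2 were higher at baseline. Of 9 heart muscle genes, 0 were called in WT mice, and 5 rose and 1 fell in Il10-/- mice (medians 3.36 and 5.27). Of 18 other p53 targets, 10 rose in WT mice and 12 in Il10-/- mice (medians 2.06 and 1.74), led by Cdkn1a, the cell cycle inhibitor, at 5.42 and 4.45, and Phlda3 at 4.06 and 3.68, beside which Rps27l rose by 2.62 and 1.46.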

How the data were processed

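Blood RNA of 20 mice was hybridised to single-colour Agilent arrays. The authors deposited the Feature Extraction output of each array, whose intensity column is background-subtracted and detrended but not normalized between arrays. The labels name version 10.7 of that software and the file headers 12.0.2.2, and positions are those of the file headers, in mm9. A second deposited file holds processed log2 values from the authors. It covers 7 of the tested genes and served as an alternative only.

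Spots marked as non-uniform outliers were dropped, log2 intensities of repeated spots were averaged, and each array was centred on its median over 39429 probes. Probes that were non-uniform, or had no significant signal over background, on at least 25% of arrays were left out, as in the methods of the study, whose 1.5-fold filter was used as an alternative only. Each comparison was fitted in limma 3.58.1 (R 4.3.3, data.table version 1.17.8) on the 10 arrays of its groups, the interaction on all 20. Promoter letters, tables and plots used Python 3.11.15, numpy 2.4.6, pandas 2.3.3 and matplotlib 3.10.9. The fit was tested on simulated data with known changes.

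Per the file headers each of the 5 slides carries a single replicate number with 1 array from each group, scanned together, which is where the pairing comes from. After group means were removed, same-slide arrays had a mean correlation of 0.21 between WT groups (0.045 to 0.32), −0.053 between Il10-/- groups and 0.0014 between the 0 Gy groups. The replicate block was therefore an alternative.

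The members and lists were chosen with earlier results of these data known. Genes were named by a rule: the 3 largest rises and falls among called genes, the paralogs and their partners, the stalk, Mdm2-binding, PCR reference and Diamond-Blackfan genes, and the smallest and largest SD. Other genes are said to be named after their values were seen, apart from the remaining called genes. The series lists the replicates as individual mice. The values of 1 tested gene are not reported here singly, though it is in the counts and medians. The 2 irradiated groups were not compared directly. The alternatives were other scalings and background correction, other filters and probes, the block, a fit of all 4 groups and single arrays left out. Scaling to the median of the members, probes on the gene's own chromosome and averaged replicates 1 and 2 were chosen after seeing the data.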

Additional observations from a re-analysis of the deposited data

Results flagged for a closer look

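Of 128 group values, those of 30 named genes, of the median level of the ribosomal protein genes and of the share of spots well above background in each of the 4 groups, 6 had an array farther from the other 4 of its group than Dixon's critical ratio of 0.71, where chance flags about 1 group in 20. In 5 of them the array was replicate 5 of WT at 0 Gy, the weak array, and the gap to the nearest array was 0.823 of the range of the group for Rpl23 (9.94 against 11.13), 0.885 for Rpl35a (5.96 against 9.88), 0.922 for Rpl7 (8.44 against 11.09), 0.804 for Rplp1 (10.28 against 12.22) and 0.814 for Rps19 (5.61 against 8.70). The genes share that array, so these are not separate events. The sixth was replicate 2 of WT at 7 Gy for Rpl7l1, which was highest at 1.80 against 1.31, with a ratio of 0.747.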

How the results depend on the processing

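In WT mice the count of called ribosomal protein genes, 2, was 1 with 75th percentile scaling, scaling to the reference array of the authors' table, quantile normalization, the authors' table of processed values and replicates 1 and 2 averaged. That gene was Rps27l each time. With probes on the gene's own chromosome it was also 1, but Rps4l, as the probe of Rps27l has no position. With scaling to the median of the members the 2 called genes were Rps27l and Rpl7l1. The count was 0 with normexp background correction and 1 to 2 with single arrays left out. There Rps4l was lost, as it was with the scalings and the averaging, without any of replicates 1 to 4 at 0 Gy and 1, 2 and 5 at 7 Gy. The median of −0.11 was −0.34 with 75th percentile scaling and −0.22 with scaling to the reference array. It turned to 0.84 with normexp, 0.043 with scaling to the median of the members, which removes their shared shift by construction, and 0.012 with replicates 1 and 2 averaged, and ran from −0.45 to 0.0065 with single arrays left out, the last without replicate 2 at 0 Gy. In Il10-/- mice the count of 9 was 4 with quantile normalization, without the filter on dim probes and with the 1.5-fold filter, 0 with normexp, 3 with the table of processed values (7 genes tested) and with the replicate block, 43 at a false discovery rate under 5% alone, 1 with all 4 groups in 1 fit and with replicates 1 and 2 averaged, and 2 with scaling to the median of the members. With single arrays left out it was 2 to 10: 2 without 0 Gy replicate 1 or 2, 3 without 7 Gy replicate 2, and 4 without 0 Gy replicate 4 or 7 Gy replicate 1 or 3. The median of −0.61 was −0.32 with quantile normalization, −0.91 with normexp, −0.0048 with scaling to the median of the members and −0.69 to −0.56 with single arrays left out. At baseline and in the interaction 0 genes were called in every alternative run, and the replicate block changed no call there or in WT mice. The baseline median of 0.46 was −0.0039 with scaling to the median of the members and 0.16 to 0.58 with single arrays left out. The interaction median of −0.48 was −1.69 with normexp, −0.022 with scaling to the median of the members and −0.59 to −0.17 with single arrays left out. Scaling to the 75th percentile moved the median of all features by −0.23 in WT mice, 0.03 in Il10-/- mice, −0.35 at baseline and 0.25 in the interaction, while the distance of the ribosomal protein genes from it stayed at −0.16, −0.50, 0.08 and −0.23. With quantile normalization that distance was −0.07, −0.16, −0.01 and −0.07. Over all features 1341, 1886 and 133 were called in the WT, Il10-/- and baseline comparisons, 369, 0 and 0 with normexp, 2632, 4458 and 68 at a rate under 5% alone, 782, 954 and 93 with replicates 1 and 2 averaged, and 1690, 1480 and 355 with the block. Rps27l was called in 22 of its 23 alternatives in each genotype and lost its call with normexp, at 2.87 and 1.01. The causes were not tested. Signal over background limited only Rpl7l1, Rps4l and the 3 untested paralogs.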
